A study of Mus musculus with 7 samples.

Results

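The genes for 4 members of the suppressor of cytokine signalling family, Socs1, Socs2, Socs3 and Cish, were followed through the chromatin of CD4+ T cells marked by an IL-4 or IFNγ reporter during infection with the hookworm Nippostrongylus brasiliensis. A region was taken as a member when it overlapped the body of 1 of these genes in the GENCODE M21 annotation or the 10 kb on either side of it. This gave 28 of the 113820 regions in the deposited accessibility table, of which 6 lay at Socs1, 4 at Socs2, 5 at Socs3 and 13 at Cish. Accessibility was measured by ATAC-seq, in which a transposase inserts sequencing adapters into open DNA, and the more insertions a region collects, the more open it was.

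All mice were of strain C57BL/6 and had been given 500 L3 larvae subcutaneously 8 days before their cells were sorted. Cells labelled IL-4+ were GFP+ CD4+ T cells from the IL-4 4get reporter line, taken from the mediastinal lymph node (LN IL-4+, n = 2 libraries) or from the lung (lung IL-4+, n = 3). Cells labelled IFNγ+ were YFP+ CD4+ T cells from the lung of the IFN-gamma GREAT reporter line (lung IFNγ+, n = 2). Each library was made from 50000 cells. The study describes its n as mice of a single experiment. The lung IL-4+ and lung IFNγ+ cells therefore differ in reporter line as well as in cytokine, and a reporter marks cells that have switched the cytokine gene on, which is not the same as secreting it. The sort had selected CD3ε+ CD4+ cells and gated out cells that stained for CD8, CD11b, CD11c, B220, NK1.1 or Ter119. Uninfected cells and cells without a reporter signal were not analysed here.

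The proteins of this family are induced by cytokine receptors and then switch the same receptors off. A cytokine activates Janus kinases, the kinases phosphorylate STAT transcription factors, and the STATs bind DNA and turn on the inhibitor genes, which closes a feedback loop. SOCS1 and SOCS3 can block the kinase directly, SOCS2 is best known for restraining growth hormone signalling, and CIS, the product of Cish, docks on receptors and is known as a target of STAT5 downstream of IL-2. In T cells SOCS1 is a main brake on IFNγ and common gamma chain cytokines, SOCS3 limits receptors that use gp130, and CIS also restrains signalling from the T cell receptor.

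STAT proteins prefer the palindrome TTCNNNGAA, in which N is any base, and STAT6, which acts downstream of IL-4, also binds a form with 1 more base in the middle. The shorter form was searched in the GRCm38.p6 genome sequence of all regions, and it reads the same on both strands. In the central 401 bp of a region it was present in 9 of the 28 member regions, or 32.1%, and in 12.3% of all regions. The longer form was present in 1 of the 28 central windows, or 3.57%, and in 10.7% of all. Over whole regions the shorter form occurred 0.716 times per kb at the members, against 0.324 per kb over all regions of the table. Places where at least 2 copies began within 50 bases of each other were rare, at 523 regions or 0.459% of the table, but 5 of the 28 member regions held one, or 17.9%. Member regions are longer than most, so these shares of whole regions are not on the same footing, and a match is a string of letters and not a measured binding site. The 6 clusters in these 5 regions are printed because such clusters were rare over the table and recurred at the starts of Socs2 and Cish. The other member regions, with all 5 at Socs3, held none. They are given on the plus strand of GRCm38.p6, from 5′ to 3′, with the matches in capitals.

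The start of Cish held 2 of the clusters, at chr9:107296654-107296683 and chr9:107296762-107296791. Both lie in or next to the annotated 5′ untranslated part of a Cish transcript. Their matches begin 11 and 17 bases apart. Another cluster lay downstream of Cish, between genes, at chr9:107308782-107308896, with matches 42 and 34 bases apart. The start of Socs2 held a pair 11 bases apart at chr10:95416889-95416938, the same spacing as the first pair of Cish. At Socs1 the clusters were at chr16:10772324-10772387, between genes and downstream of Socs1, and at chr16:10787560-10787624, upstream of it and downstream of Tnp2.
Cish start, first pair: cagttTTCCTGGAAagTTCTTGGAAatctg
Cish start, second pair: ggTTCTAGGAAgatgaggcTTCCGGGAAgg
Cish downstream, 3 copies: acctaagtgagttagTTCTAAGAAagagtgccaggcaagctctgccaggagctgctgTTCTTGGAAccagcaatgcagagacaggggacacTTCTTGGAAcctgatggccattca
Socs2 start: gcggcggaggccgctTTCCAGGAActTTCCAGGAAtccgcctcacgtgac
Socs1 downstream: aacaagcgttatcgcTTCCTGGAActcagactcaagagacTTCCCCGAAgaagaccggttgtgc
Socs1 upstream: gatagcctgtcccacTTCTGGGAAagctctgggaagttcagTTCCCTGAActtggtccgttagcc

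Socs3 held no such cluster, but its promoter held 1 copy. RefSeq promoter sequences of 300 bases around the start were at hand for Socs1, Socs3 and Cish. The Cish promoter held 2 copies, the first pair above, and the Socs1 promoter held 0. Of 32851 RefSeq promoters, 8.3% held at least 1 copy and 0.457% at least 2. The Socs3 promoter at chr11:117969317-117969616 is shown on the minus strand, on which Socs3 lies. Of the promoters at hand that held a match, it is the one whose locus did not separate the populations.
Socs3 promoter: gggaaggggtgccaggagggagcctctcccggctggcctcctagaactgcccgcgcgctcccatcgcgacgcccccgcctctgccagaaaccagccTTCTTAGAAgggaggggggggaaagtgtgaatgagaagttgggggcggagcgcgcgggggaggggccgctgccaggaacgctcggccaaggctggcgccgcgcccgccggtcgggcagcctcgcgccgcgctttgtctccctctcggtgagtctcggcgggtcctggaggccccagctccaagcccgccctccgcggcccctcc

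The deposited values are log2 normalized insertions per kb, here called the log2 density. Once region length is removed, they have nearly the same distribution in every library. Depth, rebuilt from the ties among values, was between 14005923 and 91681969 insertions per library, and the median region held 53 to 176. By the interquartile range of log2 insertions per region, 3 libraries had a narrow spread of 1.65 to 1.74, which were lung IL-4+ replicates 2 and 3 and LN IL-4+ replicate 1, and the other 4 a wide spread of 2.89 to 3.07. These are called the narrow and the wide spread class. Both lung IFNγ+ libraries were wide, so a comparison with them can be made within the wide class alone. For lung against LN IL-4+ cells, the narrow class sets lung replicates 2 and 3 against LN replicate 1. The wide class sets lung replicate 1 against LN replicate 2. Neither of these within-class differences is therefore replicated on both sides. The regions at the starts of 5 of 5 T cell markers (Cd3e, Cd3g, Cd4, Cd2, Lck) had a log2 density between 3.04 and 4.71. The table had no region at the start of Cd8a, Ms4a1, Cd79a, Lyz2, Csf1r, Sftpc, Nkx2-1, Cdh5 or Ncr1. Of the 7 other markers with a start region, the B cell gene Pax5 had a mean log2 density of 2.45 in LN IL-4+, 1.51 in lung IL-4+ and 0.18 in lung IFNγ+ cells, and the myeloid gene Itgam had 1.17, 0.62 and 2.69. Cd68, Epcam, Kdr, Cd8b1 and Klrb1c lay between 1.48 and 3.53 in each population. The part of other cells in the results below was not tested, and more cells with an open locus cannot be told apart from a locus more open in each cell. In the reporter loci, the summed normalized insertions at Il4 were 107 to 172 in the IL-4+ libraries and 39.6 and 54.4 in the IFNγ+ libraries, and those at Ifng were 12.5 to 30.8 and 72.0 and 71.2.

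The normalized insertions were summed over all regions of each locus, and library values are given in the order LN IL-4+ replicates 1 and 2, lung IL-4+ replicates 1 to 3 and lung IFNγ+ replicates 1 and 2. At Cish (chr9:107296026-107302784, plus strand) the sums were 318 and 270, then 441, 644 and 674, then 361 and 354. The 3 populations did not overlap, with lung IL-4+ highest and LN IL-4+ lowest. At Socs2 (chr10:95385362-95417180, minus strand) the sums were 41.5 and 43.8, then 72.9, 84.3 and 75.7, then 59.3 and 63.6. The order of the populations was the one seen at Cish, again with no overlap. How many of all loci separate in this way was not counted. Of all single regions, lung IL-4+ libraries lay wholly above LN IL-4+ libraries in 13.6% and above lung IFNγ+ libraries in 19.4%. Lung IFNγ+ libraries lay wholly above LN IL-4+ libraries in 26.5%. At Socs1 (chr16:10782240-10785536, minus strand) the sums were 269 and 211, then 245, 297 and 304, then 232 and 243. At Socs3 (chr11:117966079-117970047, minus strand) they were 172 and 99.2, then 91.2, 150 and 154, then 95.7 and 108. Socs1 and Socs3 split by spread class, since the 3 narrow libraries held 269 to 304 at Socs1 and 150 to 172 at Socs3, and the 4 wide libraries 211 to 245 and 91.2 to 108. LN IL-4+ libraries overlapped both lung populations at these loci, and lung IL-4+ libraries lay above lung IFNγ+ libraries at Socs1, by a margin of 245 against 243, but not at Socs3.

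**Figure D1:**
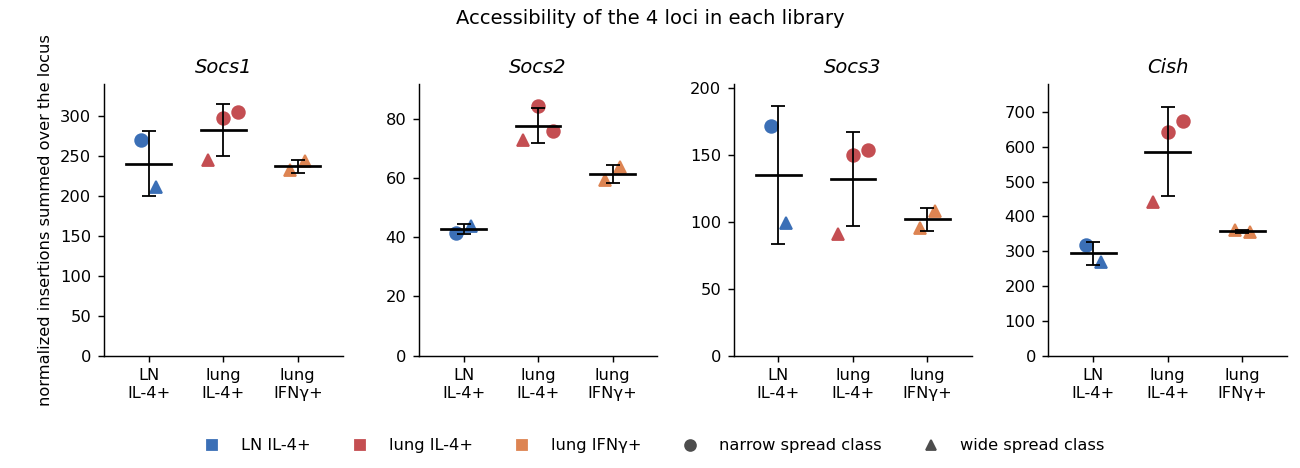
Normalized insertions summed over the regions of each locus (vertical axis, starting at 0) in the 7 libraries, by population; lines are means and bars are 1 SD (n = 2, 3 and 2), circles are libraries of the narrow and triangles of the wide spread class. The populations separate at Socs2 and Cish, while at Socs1 and Socs3 every circle lies above every triangle.

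Per kb of accessible sequence, the level can be compared between genes. In lung IL-4+ cells Cish had the highest mean, at 24.2 normalized insertions per kb, followed by Socs1 at 21.1, Socs3 at 16.1 and Socs2 at 13.3. In LN IL-4+ cells the order was Socs1 at 17.9, Socs3 at 16.5, Cish at 12.1 and Socs2 at 7.33. The mean of Cish was below those of Socs1 and Socs3 in LN IL-4+ cells and above them in lung IL-4+ cells. The single LN IL-4+ libraries held 13.1 and 11.1 per kb at Cish, 21.0 and 12.1 at Socs3 and 20.1 and 15.7 at Socs1. Socs1 and Socs3 were each above Cish within both libraries, but the ranges of Socs3 and Cish overlapped. The single lung IL-4+ libraries held 18.2 to 27.8 per kb at Cish and 18.3 to 22.7 at Socs1, so that the top 2 places did not differ beyond their spread. In lung IFNγ+ cells Socs1 was at 17.7, Cish at 14.7, Socs3 at 12.4 and Socs2 at 10.6, and the 2 libraries kept the first 2 places apart.

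The comparison of lung with LN IL-4+ cells asks how cells with the same reporter differ between the tissues. The locus sums of 17044 protein-coding genes were fitted together with limma, with Benjamini-Hochberg adjustment over all of them, and 0.663% were called higher in lung IL-4+ cells at an adjusted p below 0.05. Of the 4 members, Socs2 passed, with a mean sum of 77.6 ± 5.94 (SD, n = 3) in the lung and 42.7 ± 1.65 (n = 2) in the lymph node. That is a 1.82-fold difference, or 0.86 on the log2 scale (SE 0.12, 95% interval 0.58 to 1.14, limma adjusted p = 0.0279), and 98.1% of genes had a lower value. Without lung IL-4+ replicate 2 or 3, or lung IFNγ+ replicate 1 or 2, its limma adjusted p was 0.171, 0.121, 0.115 and 0.118, while the difference stayed between 0.80 and 0.88. Within the narrow class the Socs2 difference was 0.95 and within the wide class 0.73.

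Cish had a larger difference with a larger spread. Its mean sum was 586 ± 127 (n = 3) in lung and 294 ± 33.9 (n = 2) in LN IL-4+ cells, a 1.97-fold difference, or 0.98 on the log2 scale (SE 0.19, 95% interval 0.54 to 1.42), which missed the threshold (limma adjusted p = 0.0647, unadjusted p = 0.00093). Without lung IL-4+ replicate 2 or 3, or lung IFNγ+ replicate 1 or 2, its limma adjusted p was 0.293, 0.205, 0.176 and 0.177. It passed without lung IL-4+ replicate 1, the wide library of that population (1.17, limma adjusted p = 0.0249), and with the regions of the gene body alone (1.33, limma adjusted p = 0.0141). Within the narrow class the Cish difference was 1.05 and within the wide class 0.71.

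Neither of the direct kinase inhibitors showed a difference that passed. Socs1 differed by 0.24 (SE 0.15, 95% interval -0.10 to 0.58, limma adjusted p = 0.521) and Socs3 by -0.02 (SE 0.29, 95% interval -0.69 to 0.64, limma adjusted p = 0.985). Both intervals allow a difference of either sign, so these libraries do not show that either locus was alike in the tissues. Within the narrow and the wide class Socs1 differed by 0.16 and 0.22, and Socs3 by -0.17 and -0.12.

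Single regions were then tested in the same way over all 113820. At an adjusted p below 0.05, 5 of the 28 member regions were higher in IL-4+ cells of the lung, where 1.88% of all regions were, and 0 were lower. With the 3-fold minimum that the study used, 1 member region remained, where 1.05% of all regions did. Lung and LN libraries did not overlap in 11 member regions, with lung IL-4+ higher in all 11, against 13.6% of all regions. These were 7 of 13 regions at Cish, 3 of 4 at Socs2, 1 of 6 at Socs1 and 0 of 5 at Socs3. The median log2 difference of the members was 0.512, and that of all regions -0.032.

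The region that passed the 3-fold minimum lies at the 3′ end of Cish (chr9:107302274-107303593) and overlaps its 3′ untranslated exon. Its log2 density was 2.58 and 2.98 in LN IL-4+, 4.11, 4.78 and 4.60 in lung IL-4+ and 3.87 and 3.93 in lung IFNγ+ libraries. Every lung library was above both lymph node libraries. The lung IL-4+ density was 3.28-fold that of LN IL-4+ cells, or 1.71 on the log2 scale (SE 0.25, limma adjusted p = 0.00865), with 2.11 within the narrow and 1.13 within the wide class. Without lung IL-4+ replicate 2 the difference was 1.57 and the limma adjusted p was 0.0632.

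The Cish start region (chr9:107295602-107296889), which holds both start pairs, was the most accessible of the locus, with 97.9% of all regions below it. Its log2 density was 4.87 and 5.36, then 6.27, 6.23 and 6.44, then 5.80 and 5.74, so that the 3 populations were apart. The lung IL-4+ density was 2.29-fold that of LN IL-4+ cells, or 1.20 on the log2 scale (SE 0.17, limma adjusted p = 0.00822), with 1.46 within the narrow and 0.91 within the wide class. Without lung IL-4+ replicate 2 the limma adjusted p was 0.0575. The region over the body of the gene (chr9:107297014-107302189), which also covers exons of the pseudogene Gm17040 and the antisense gene Gm17041, had 3.23 and 2.16, then 3.42, 4.53 and 4.48, then 2.80 and 2.89. Its difference of 1.44 (SE 0.40) missed the threshold (limma adjusted p = 0.0873), and ATAC-seq does not say which of these genes an open region serves.

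Downstream of Cish, 2 more regions passed the adjusted p, chosen here after their values were seen. The one at chr9:107303608-107306535 had 3.27 and 3.33, then 4.27, 4.80 and 4.81, then 4.06 and 3.84, with a difference of 1.33 (SE 0.23, limma adjusted p = 0.0148). The one at chr9:107312200-107313299 was again highly accessible, with 4.57 and 4.98, then 5.59, 5.66 and 5.78, then 5.35 and 5.39, and a difference of 0.90 (SE 0.17, limma adjusted p = 0.0235). The region with the 3 downstream copies of the palindrome (chr9:107307219-107309564) had 3.11 and 2.49, then 3.53, 4.52 and 4.36, then 3.50 and 3.34. Its difference of 1.34 (SE 0.33) missed the threshold (limma adjusted p = 0.0584).

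Between lung and LN IL-4+ cells the Cish locus divided at its gene start. In the 7 regions from the start region downstream the LN and lung IL-4+ libraries did not overlap in any, and the differences ran from 0.90 to 1.71, with 0.68 to 2.11 within the narrow and 0.61 to 1.51 within the wide class. In the 6 regions upstream, which include the 5′ end of the neighbouring kinase gene Mapkapk3, they overlapped in all 6, and the differences ran from 0.06 to 0.97, with 0.01 to 0.62 within the narrow and -0.67 to 1.07 within the wide class, in which 3 of 6 were above 0. This split was noticed in the values and not tested. It was not seen between lung IL-4+ and lung IFNγ+ cells, with medians of 0.625 upstream and 0.68 in the other regions. Those libraries did not overlap in 4 of the 6 upstream and 7 of the 7 other regions. Of all regions, 13.6% had lung IL-4+ libraries wholly above LN IL-4+ libraries and 19.4% wholly above lung IFNγ+ libraries. A pair of upstream regions in exons of Gm17040, both among the 4 without overlap, followed the spread class instead. The one at chr9:107292299-107292699 had 2.22, 2.49 and 3.18 in the narrow libraries and 0.52, -0.16, -2.0 and -0.25 in the wide ones, and only 8.6% of all regions had a lower mean.

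**Figure D2:**
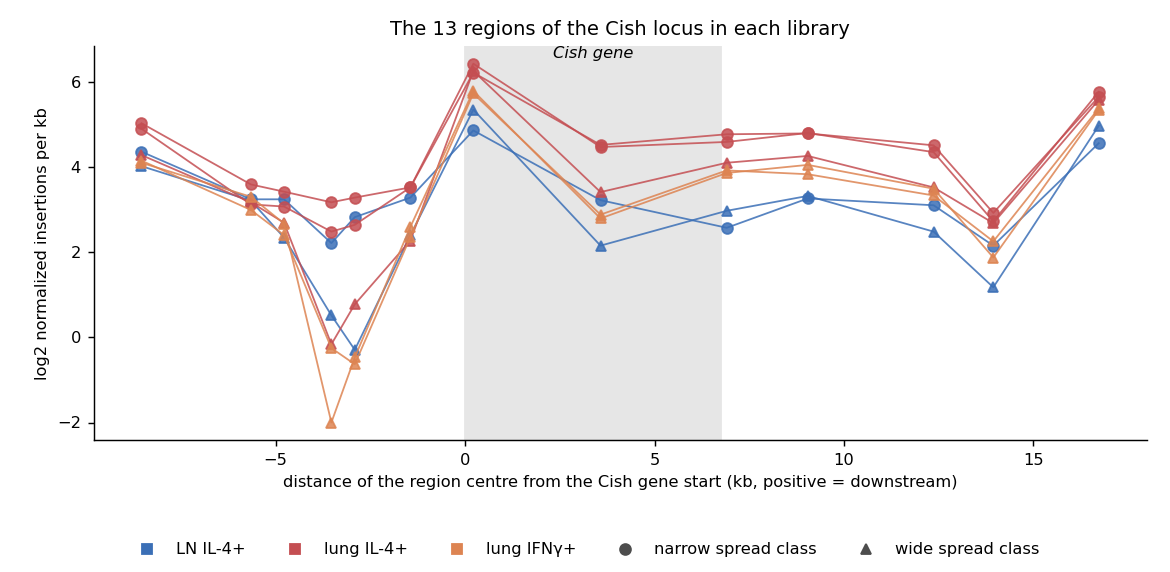
Log2 normalized insertions per kb (vertical axis) in the 13 regions of the Cish locus, by the distance of the region's centre from the gene start in kb (horizontal axis), 1 line per library, coloured by population and marked by spread class, with the gene body in grey. From the start region on, the 3 lung IL-4+ lines run above both LN IL-4+ lines, and around -3 kb the circles separate from the triangles.

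At Socs2 the start is covered by adjoining regions. The one with the palindrome pair (chr10:95416554-95417236) overlaps the 5′ untranslated part of Socs2 and had 3.63 and 4.35, then 5.15, 4.96 and 4.86, then 4.80 and 4.95. All 5 lung libraries were above both lymph node libraries. The lung IL-4+ density was 2.00-fold that of LN IL-4+ cells, or 1.00 on the log2 scale (SE 0.23, limma adjusted p = 0.0458), with 1.28 within the narrow and 0.80 within the wide class. This call was lost when any 1 library other than LN IL-4+ replicate 2 was left out, with limma adjusted p between 0.0805 and 0.164. The difference itself was 0.64 without LN IL-4+ replicate 1 and 1.36 without LN IL-4+ replicate 2. The region at the inner start (chr10:95414290-95416461), over coding sequence, had 2.97 and 2.99, then 3.64, 3.95 and 3.83, then 3.30 and 3.32, a tight ordering whose difference of 0.83 (SE 0.23) missed the threshold (limma adjusted p = 0.0851). Upstream, the region over an exon of the noncoding gene 5730420D15Rik (chr10:95417298-95419141) differed by 0.92 (SE 0.28, limma adjusted p = 0.125). The intronic region, 22.1 kb downstream of the start, differed by 0.57 (SE 0.38, limma adjusted p = 0.529).

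At Socs1 and Socs3 the gene itself was highly accessible in every library. The region over the whole of Socs1 and its start (chr16:10779866-10786724) had 4.79 and 4.44, then 4.82, 5.04 and 4.97, then 4.69 and 4.75. Lung IL-4+ libraries were above LN IL-4+ libraries there by a small margin, and the difference of 0.33 (SE 0.18) missed the threshold (limma adjusted p = 0.422). The region over the start and coding exon of Socs3 (chr11:117967510-117970858) had 4.68 and 3.92, then 3.93, 4.74 and 4.71, then 3.78 and 4.01. Narrow libraries of either tissue were alike there, at 4.68 to 4.74, and so were wide ones, at 3.78 to 4.01. The difference at Socs3 was 0.16 (SE 0.30, limma adjusted p = 0.862), and 0.04 and 0.01 within the narrow and wide class. The region with the palindrome cluster downstream of Socs1 (chr16:10772068-10772781) was the second most accessible member region together with the farthest one of Cish, with 96.2% of all regions below, and held 5.14 to 5.59 over all 7 libraries. It differed by -0.05 (SE 0.16, limma adjusted p = 0.931) between lung and LN IL-4+ cells.

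**Figure D3:**
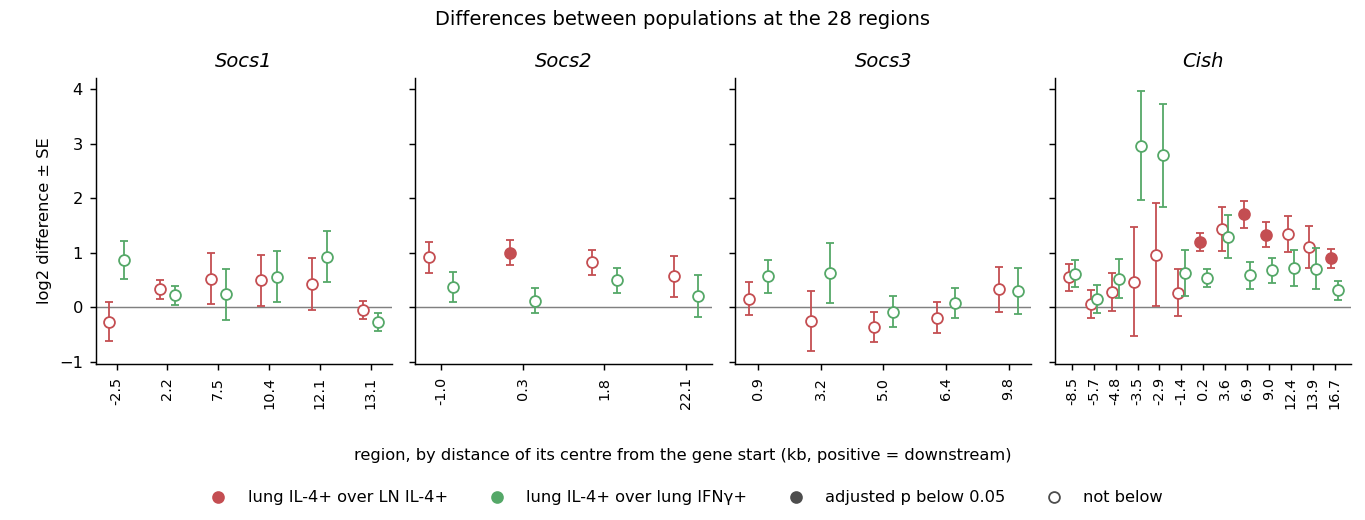
Log2 differences with their SE (vertical axis) of lung IL-4+ from LN IL-4+ cells and from lung IFNγ+ cells at the 28 regions, ordered by the distance of the region's centre from the gene start in kb; filled points have an adjusted p below 0.05. The 5 filled points are 4 regions of Cish and 1 of Socs2, all in the comparison of lung with LN IL-4+ cells.

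The comparison of lung IL-4+ with lung IFNγ+ cells holds the tissue and changes the cytokine reporter. By limma, 0 of the 28 member regions were called, with or without the 3-fold minimum, where 0.496% and 0.664% of all regions were, and 8 had an unadjusted p below 0.05, all higher in lung IL-4+ cells, against 14.8% of all regions in either direction and 6.36% higher. No member locus was called either, where 0.0528% of the 17044 were, with 2 members at an unadjusted p below 0.05, against 14.9% of all. With 1 weight per library (array weights) 2 regions and 4 loci were called, but so were 5.76% of all regions and 70.1% of all loci, and the weights for loci did not converge. The Cish sum was 1.61-fold higher in lung IL-4+ cells, or 0.69 on the log2 scale (SE 0.19, 95% interval 0.25 to 1.13, limma adjusted p = 0.229), and 0.30 within the wide class. The Socs2 sum was 1.26-fold higher, or 0.34 (SE 0.12, 95% interval 0.05 to 0.62, limma adjusted p = 0.313), and 0.25 within the wide class. Socs1 differed by 0.24 (SE 0.15, limma adjusted p = 0.392) and by 0.04 within the wide class, and Socs3 by 0.34 (SE 0.29, limma adjusted p = 0.498) and by -0.15 within the wide class, so that the Socs3 value changed sign there.

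The log2 difference was above 0 in 26 of 28 member regions in that comparison, against 49.7% of all regions. Within the wide class it was above 0 in 20 and below 0 in 8, and 6 regions had the opposite sign there. The libraries did not overlap in 17 with lung IL-4+ higher and in 1 with lung IFNγ+ higher, against 19.4% and 21.2% of all regions. Of the 17, 11 were at Cish, 3 at Socs1, 2 at Socs2 and 1 at Socs3. The 1 region with lung IFNγ+ higher was the accessible one downstream of Socs1, at -0.27 (SE 0.16, limma adjusted p = 0.436). In the Cish regions from the start on, the differences ran from 0.31 to 1.30, and from 0.10 to 0.62 within the wide class, in which lung IL-4+ cells have 1 library. The spread class of the libraries moves with this comparison, because both lung IFNγ+ libraries are wide and 2 of the 3 lung IL-4+ libraries are narrow, and its part was not tested beyond these values.

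The comparison of lung IFNγ+ with LN IL-4+ cells changes tissue and reporter together, and shares its libraries with both comparisons above. By limma, 0 of the 28 regions were called, with or without the 3-fold minimum, where 3.03% and 4.19% of all regions were, and 7 had an unadjusted p below 0.05, 5 higher and 2 lower in lung IFNγ+ cells, against 18.5% of all regions. At the loci, 0 of 4 members and 2.14% of all were called, with 1 member at an unadjusted p below 0.05, against 16.3% of all. That member was Socs2, 1.44-fold higher in lung IFNγ+ cells, or 0.53 on the log2 scale (SE 0.13, 95% interval 0.22 to 0.84, limma adjusted p = 0.104) and 0.49 within the wide class. Its 4 regions had lung IFNγ+ above LN IL-4+ libraries without overlap. Over all members this was so in 10 regions and the reverse in 5, against 26.5% and 27.2% of all regions. The Cish sum differed by 0.29 (SE 0.21, limma adjusted p = 0.497), Socs1 by -0.00 (SE 0.16, limma adjusted p = 0.995) and Socs3 by -0.36 (SE 0.31, limma adjusted p = 0.561). The closest region was the 3′ one of Cish, 2.17-fold higher in lung IFNγ+ cells, or 1.12 (SE 0.28, limma adjusted p = 0.0508), and 0.92 within the wide class.

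**Figure D4:**
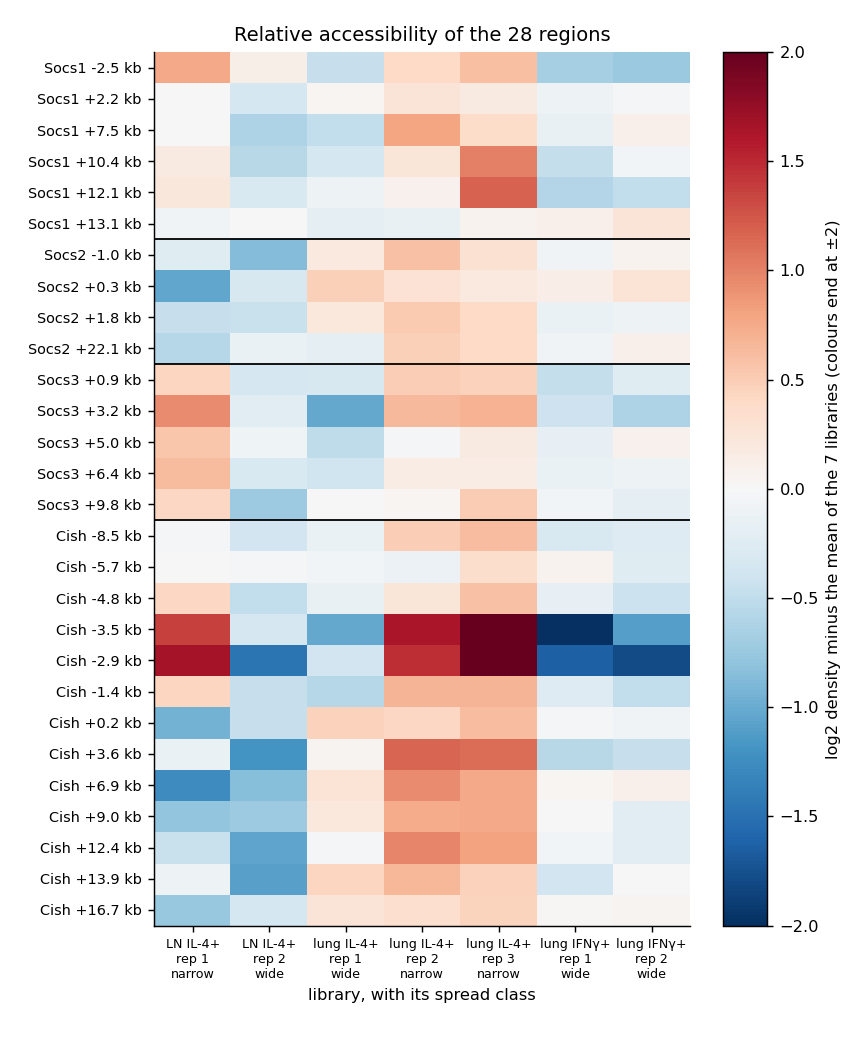
Log2 density of each of the 28 regions (rows, named by gene and by the distance of the centre from the gene start in kb) in the 7 libraries (columns), minus the mean of the region over the libraries; red is above and blue below that mean, with colours ending at 2 on either side. The Socs2 rows and the Cish rows from the start on are blue in both LN IL-4+ libraries, most Socs3 rows follow the spread class, and the rows of Cish at -3.5 and -2.9 kb follow it most strongly.

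Other genes of the pathway were read from lists drawn up for their function. The remaining SOCS genes, Socs4 to Socs7, had 38 regions, of which 0 were called by limma in either comparison with lung IL-4+ cells and 1 was called higher in lung IFNγ+ cells against LN IL-4+ cells, a share near the 3.03% of all regions called there. This region of Socs6 had 0.03 and -0.39 in LN IL-4+, 2.62, 1.21 and 1.00 in lung IL-4+ and 2.63 and 2.44 in lung IFNγ+ libraries (difference 2.72, SE 0.62, limma adjusted p = 0.0365). The 4 Janus kinases, which SOCS proteins act on, had 143 regions and 0 calls by limma in any comparison. Their median difference was 0.394 between lung and LN IL-4+ cells, where that of all regions was -0.032. Between lung IL-4+ and lung IFNγ+ cells it was 0.51, where that of all regions was -0.006. The partners that tie the SOCS box to ubiquitin ligases (Elob, Eloc, Cul5, Rnf7) had 25 regions and 0 calls. No locus of these lists passed the threshold in any comparison.

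The 12 other negative regulators of cytokine signalling, phosphatases and ubiquitin enzymes among them, had 301 regions, with no more calls for their number than the table at large. Between lung and LN IL-4+ cells 1 was called, where 1.74% of all regions were, in the gene of the phosphatase SHP2, Ptpn11 (chr5:121148983-121149709). Its log2 density was 4.00 and 3.39 in LN IL-4+, -0.02, 1.40 and 1.76 in lung IL-4+ and 0.37 and -0.34 in lung IFNγ+ libraries, so that it was open in the lymph node and low in both lung populations (difference -2.65, SE 0.58, limma adjusted p = 0.0403, for lung against LN IL-4+ cells). Between the lung populations 1 was called, where 0.496% of all were, within 10 kb of Usp18, an interferon-induced brake on the type I interferon receptor (chr6:121238154-121238690). It had 1.24 and 1.39, then 1.03, 1.10 and 1.11, then 3.55 and 3.69, and lung IFNγ+ cells stood above both IL-4+ populations (difference -2.54 for lung IL-4+ against lung IFNγ+, SE 0.36, limma adjusted p = 0.0204). For lung IFNγ+ against LN IL-4+ cells these same regions of Ptpn11 and Usp18 were called, as was 1 of the phosphatase gene Ptpn2 (2.27, SE 0.52, limma adjusted p = 0.0387), and 1 of Ptpn6 passed without the 3-fold minimum (1.30, SE 0.27, limma adjusted p = 0.0276).

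The genes with the most similar profiles were sought among 13316 protein-coding genes with at least 3 regions, by Pearson's r of the log2 locus sums over the 7 libraries. Closest to Cish were Dusp5, a phosphatase of ERK kinases (r = 0.995), and Rab8b (0.99), and closest to Socs2 were the cytokine gene Il3 (0.986), Kif1bp (0.982) and Cenpl (0.981). Closest to Socs1 were Dgat1 (0.996), Scrt1 (0.991) and Sh3bgrl3 (0.99), and closest to Socs3 were Mgat4c (0.994), Eps15l1 (0.994) and Rac2 (0.991). With 7 libraries in 3 populations and 2 spread classes, high values are common, and 153 genes exceeded 0.9 with Cish, 139 with Socs2, 419 with Socs1 and 1186 with Socs3. Among the members, Cish had r = 0.877 with Socs2, 0.856 with Socs1 and 0.436 with Socs3, and Socs2 had 0.013 with Socs3. These values describe the same 7 libraries and their shared scaling.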

How the data were processed

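Reads were adapter-trimmed and aligned to GRCm38/mm10 by the authors. Duplicates were marked, reads that were mitochondrial, of low quality or in blacklisted regions were dropped, summits were called in each replicate, and insertions were counted in merged fixed-width regions. The submitters' processing notes name bcl2fastq, Bowtie2 2.3.2, MACS2 2.1.1, limma 3.38.3 and R 3.5.1. The deposited values are log2 insertions per kb, normalized with voom by the authors. The sorted values nearly coincide between libraries once region length is removed, as quantile normalization leaves them, a step not given in the sources used here. Counts were rebuilt from ties (equal to 8 decimals) as lower bounds and used for depth and 1 alternative. All 7 columns were used.

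The log2 values of 113820 regions were fitted in R 4.3.3 with limma 3.58.1 (lmFit, eBayes with a variance trend), 1 mean per population, no covariate, pseudocount or filter, and Benjamini-Hochberg adjustment within each of 3 contrasts. Calls needed an adjusted p below 0.05 and, for regions, a 3-fold difference as in the study. Locus sums took the linear values of all regions within 10 kb of a gene and were tested on the log2 scale for 17044 protein-coding GENCODE M21 genes. The fit was tested on simulated data that had no spread classes and only changes larger than the member differences between lung and LN IL-4+ cells. Tables were made in Python 3.11.15 with pandas 2.3.3 and figures with matplotlib 3.10.9.

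Named were the members, the regions at their starts, those called in any contrast, those with the smallest p per member and contrast, regions called in the pathway lists, and the 3 genes most like each member. Some items that these rules name are not reported here. Members, lists and tests were chosen with earlier results of these data known. The p-values measure the spread between these libraries, of which each population has 2 or 3. The alternatives were a replicate block, leaving out each library, array weights, 2 populations at a time, the spread class as a covariate, median centring, a pseudocount of 1, a filter on the lowest quartile, no variance trend, voom on rebuilt counts, other fold minimums, other flanks and the mean of log2 densities.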

Additional observations from a re-analysis of the deposited data

How the results depend on the processing

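The count of 1 member region called higher in IL-4+ cells of the lung than of the lymph node became 0 with a pseudocount of 1, without a variance trend and with voom on rebuilt counts, 2 with array weights, 4 with a fold of at least 2 and 5 with no fold minimum. It ranged from 0 (without lung IL-4+ replicate 2) to 3 (without lung IL-4+ replicate 1). The count of 1 locus, Socs2, became 0 with 2 populations only and with the mean of log2 densities, and 2 with array weights, the spread class as a covariate, the gene body only and 25 kb on each side. With voom it stayed at 1, but the locus was Cish (limma adjusted p = 0.0298) and not Socs2 (0.0642). It ranged from 0 to 2 with single libraries left out. Between lung IL-4+ and lung IFNγ+ cells the 0 regions became 2 with array weights and ranged from 0 to 1 (1 without lung IL-4+ replicate 1), and the 0 loci became 4 with array weights. For loci, the estimate of these weights stopped before it converged. For lung IFNγ+ against LN IL-4+ cells the 0 loci became 2 with the spread class as a covariate and with voom, and ranged from 0 to 1 (1 without LN IL-4+ replicate 2).

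With the replicate block, both counts of 1 for lung against LN IL-4+ cells became 0. The numbers give only 2 pairs for each pair of populations, and the deviations of same-numbered libraries had correlations of -0.542 to 0.057. Same-numbered LN and lung IL-4+ libraries are of opposite spread class. These correlations therefore cannot decide whether same-numbered libraries share a mouse or a sort day.

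The sign of the Socs2 difference, and of the Cish difference at the start region, the 3′ region and the locus, was the same under every alternative for lung against LN IL-4+ cells, and Socs2 passed in 11 of 19 and Cish in 6 of 19 settings. Other signs turned. For lung against LN IL-4+ cells, the Socs3 locus became 0.19 with array weights, 0.07 with median centring, 0.09 with 25 kb and -0.42 to 0.37 with libraries left out. Its region in the 3′ untranslated part (main -0.25) became 0.05 with array weights and -0.83 to 0.33 with libraries left out, its start region ranged from -0.22 to 0.54 and the Tnp2 region at Socs1 from -0.58 to 0.07. For lung IL-4+ against lung IFNγ+ cells, with the spread class as a covariate, the Socs3 locus (main 0.34) became -0.17 and the region just named (main 0.63) -0.35, the Socs2 start region became -0.04 with voom, and the region at the 3′ end of Socs3 ranged from -0.23 to 0.12. For lung IFNγ+ against LN IL-4+ cells, the Socs1 locus became 0.16 with the spread class, 0.05 with median centring and 0.10 with the gene body, and ranged from -0.18 to 0.17 with libraries left out. The Socs3 locus and the region at its 3′ end became 0.02 with the spread class and ranged from -0.76 to 0.03 and from -0.60 to 0.04, the Cish locus became -0.07 with the mean of log2 densities, and the Socs1 start region -0.01 with voom, with a range from -0.07 to 0.28, as the Cish body region ranged from -0.39 to 0.68. Of the other values of single loci and regions, 612 kept direction and side of the threshold, 41 passed newly and 26 no longer passed. Fits that leave 1 library in a population assume that it varies like the others.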
